A study of Mus musculus with 5 samples.

Results

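The 10 genes described here bring fatty acids into cells, carry them in the cytosol, coat the lipid droplets in which they are stored and release them again: Lpl, Cd36, Fabp4, Fabp5, Plin2, Plin3, Plin4, Plin5, Cidea and Lipe. They were taken by gene name from the deposited table, with the transcripts of each summed per Ensembl gene, and they were 10 of 21667 genes in all. RNA-seq had been made of the total dorsal epidermis of wildtype C57BL/6 male mice at postnatal day 49, after shaving, in a series on how cAMP signalling and Creb act on the hair cycle. Forskolin, which activates adenylyl cyclase, was given at 10 µM (2 libraries, forskolin 1 and 2) and cAMP at 1.325 mM (2 libraries, cAMP 1 and 2), each in a DMSO and PLO lotion vehicle and applied 3 times over 5 days. A single library labelled untreated served as the control, and the labels do not say whether it received the vehicle. Nor do they say whether the libraries of a group came from separate mice, and the p-values therefore cover the spread among these libraries alone, which may be technical. That spread was taken mostly from other genes of similar level. A small p-value therefore does not show that the libraries of a group agreed closely for that gene. All 5 libraries held whole epidermis freed from the skin by dissection and trypsin, and 10 of 10 keratinocyte markers reached 1 CPM (reads of a gene scaled to library size) in every one.

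Lipoprotein lipase, the product of Lpl, frees fatty acids from circulating triglyceride, and CD36 helps them cross the plasma membrane. Inside the cell, fatty acid binding proteins carry them, and perilipins and CIDE proteins coat the droplets that hold them as triglyceride, where hormone-sensitive lipase (Lipe) cuts diacylglycerol and cholesterol ester. In adipocytes, protein kinase A, the kinase switched on by cAMP, phosphorylates hormone-sensitive lipase and perilipin. In skin, droplets are most abundant in the cells of the sebaceous gland, which fill with lipid and burst to give sebum, and Fabp5 is the main fatty acid binding protein of the epidermis.

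The upstream sequences of these genes are shown because the study concerns Creb, whose site is the palindrome TGACGTCA, and because PPAR receptors, for which several of these genes are classical targets, bind direct repeats. The RefSeq promoter table (GRCm38.p6, 250 bases before to 50 after each start) held 8 windows for 6 of the 10 genes: Cd36, Plin2, Plin3 and Plin4 with 1 each, and Lipe and Plin5 with 2 each. Lpl, Fabp4, Fabp5 and Cidea had no entry. On either strand, 0 of the 8 windows held the full cAMP response element TGACGTCA, which 1.79% of 32851 promoters in the table held. The same was true of its shorter form TGACG, found in 20.81% of promoters and contained in the full element, and of the direct repeat DR1 (AGGTCA, any base, AGGTCA, matched exactly), found in 0.03957%. A further pair of motifs was searched after the sequences had been seen: CCAAT, present in 5 of the 8 windows and in 37.41% of all promoters, and GGGCGG, present in 6 of the 8 and in 35.66%. A missing match says only that these letters were not in these windows. Below are the stretches before the start of Plin2 (chr4:86670061-86670309), Cd36 (chr5:17835897-17836146), Plin3 (chr17:56290512-56290761) and Lipe at its downstream start (chr7:25390113-25390351), all on the minus strand, written 5′ to 3′, with CCAAT on either strand in capitals. They were chosen as a strongly higher coat gene, an uptake gene, a coat gene that was not called once the libraries were scaled, and a gene whose start sites were used differently.
Plin2: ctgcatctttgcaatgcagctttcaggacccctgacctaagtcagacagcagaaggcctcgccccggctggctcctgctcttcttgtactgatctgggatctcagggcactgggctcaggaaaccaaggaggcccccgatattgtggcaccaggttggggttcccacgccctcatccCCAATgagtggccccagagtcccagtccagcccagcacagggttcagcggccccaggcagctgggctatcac
Cd36: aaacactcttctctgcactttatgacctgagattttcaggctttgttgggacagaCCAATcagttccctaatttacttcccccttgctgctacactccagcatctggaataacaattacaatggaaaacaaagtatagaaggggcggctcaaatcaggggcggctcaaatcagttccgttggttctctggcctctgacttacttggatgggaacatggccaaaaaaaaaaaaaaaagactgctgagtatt
Plin3: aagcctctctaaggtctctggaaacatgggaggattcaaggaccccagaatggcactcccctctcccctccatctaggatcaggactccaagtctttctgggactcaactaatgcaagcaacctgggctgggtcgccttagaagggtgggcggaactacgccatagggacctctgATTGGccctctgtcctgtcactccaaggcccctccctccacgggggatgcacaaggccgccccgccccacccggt
Lipe: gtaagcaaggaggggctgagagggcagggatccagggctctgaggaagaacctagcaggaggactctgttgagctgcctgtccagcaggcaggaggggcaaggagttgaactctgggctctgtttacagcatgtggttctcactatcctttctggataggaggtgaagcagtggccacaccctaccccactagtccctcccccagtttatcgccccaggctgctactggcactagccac

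The depth of the libraries was estimated at 34200000 to 51700000 reads, and the control stood apart from the 4 treated libraries in make-up. In the control 69.3% of the listed CPM fell on mitochondrial genes and 7.90% on nuclear genes other than pseudogenes and rRNA, whereas in the treated libraries these shares were 43.2% to 58.1% and 26.0% to 38.0%. On the deposited scale the median of all 13764 tested genes was 1.69 higher with forskolin and 1.66 higher with cAMP than in the control (log2 of CPM + 1). Levels are given as deposited and, for the tested genes, again after division by median-of-ratios size factors (0.317 for the control, 1.12 to 1.65 for the treated libraries), here called scaled CPM, which brought those medians to 0.18 and 0.16. Of the 10 genes, 9 passed the filter of at least 1 CPM in at least 2 libraries and were tested with limma over all genes at an adjusted p of 0.05. Plin5 did not pass. With 1 control library, no spread between controls could be measured, and any effect of the vehicle or of that library cannot be told apart from the treatments.

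Most of the group was higher in treated epidermis as deposited, and the genes that stood out once the libraries were scaled were Lpl, Fabp5 and Plin2 with either treatment and Cd36 and Cidea with cAMP. With forskolin, 8 of the 9 tested genes were higher than in the control by limma, on a scale where 66.3% of all tested genes were, and 0 were lower, where 0.341% of all were. After scaling 3 were higher (Lpl, Fabp5 and Plin2; 14.4% of all tested genes) and 0 lower (7.39% of all). With cAMP, 7 were higher as deposited (65.1% of all) and 0 lower (0.436% of all), and after scaling 5 were higher (14.8% of all) and 0 lower (7.78% of all). At an unadjusted p under 0.05 the counts of lower genes were 0 as well in both comparisons and on both scales. Over all tested genes 0.436% and 0.545% were lower at that threshold as deposited, and 13.6% and 13.7% scaled. The median log2 difference of the 9 genes from the control was 2.48 with forskolin and 3.96 with cAMP, or 0.55 and 2.02 after scaling. As all 10 genes were chosen with earlier results known, these medians describe the group. The treatments share the 1 control library, so their differences from it are not independent of each other. In tissue RNA, more cells of a type and more RNA per cell cannot be told apart.

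**Figure D1:**
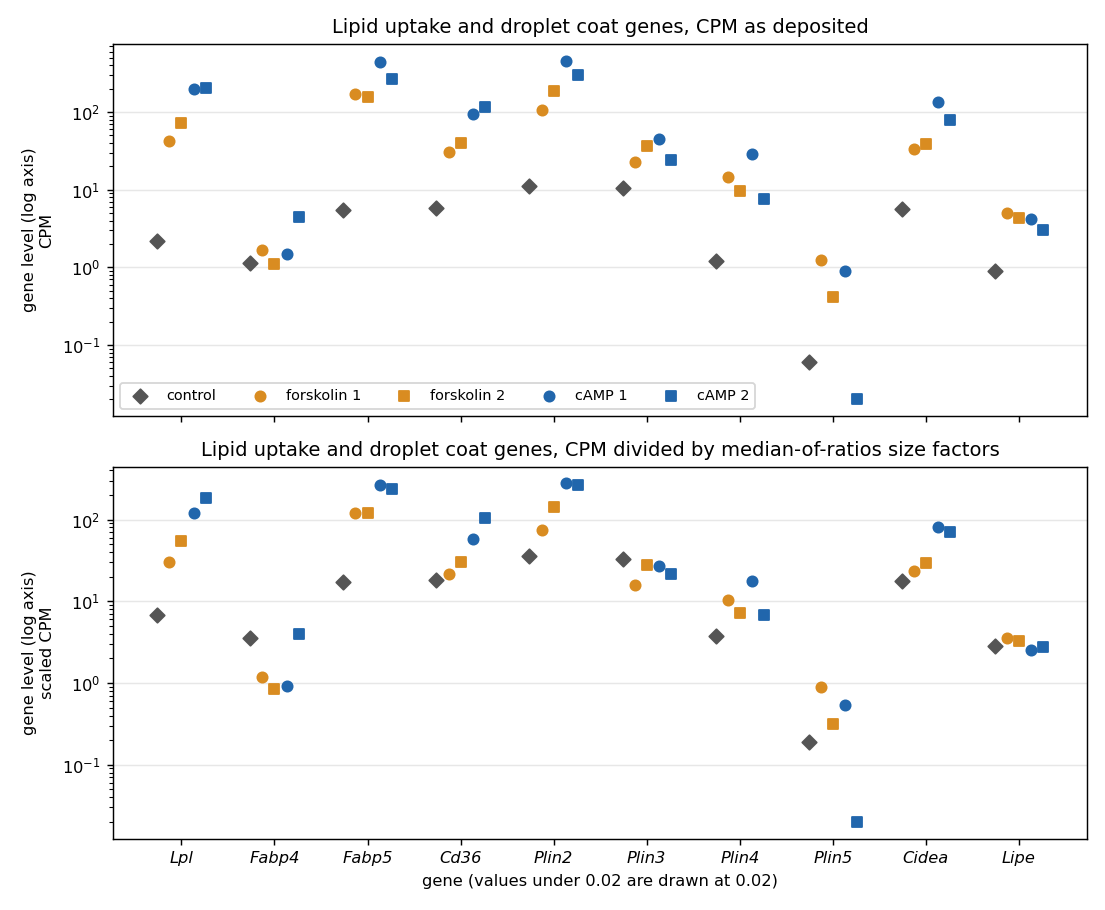
Level of each of the 10 genes in each library on a log axis, as deposited CPM (top) and as CPM divided by the library's size factor (bottom), with the control as a diamond, forskolin in orange and cAMP in blue. In the bottom panel Lpl, Fabp5, Plin2 and Cidea climb from control to forskolin to cAMP, whereas Plin3 is highest in the control.

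Uptake was represented by Lpl and Cd36. Lpl (ENSMUSG00000015568, chromosome 8, 68880491 to 68907448, plus strand) stood at 2.167 CPM in the control, 42.8 and 71.6 with forskolin and 196 and 207 with cAMP. The 3 groups did not overlap, and the cAMP libraries were the highest and the closest to each other. After scaling Lpl read 6.83 in the control, 30.1 and 54.5 with forskolin and 119 and 185 with cAMP, again without overlap. It rose by 4.15 ± 0.58 log2 units with forskolin (SE; limma adjusted p = 7.16e-10) and by 6.00 ± 0.58 with cAMP (adjusted p = 7.17e-19). After scaling the rises were 2.41 ± 0.42 (limma adjusted p = 0.000936) and 4.25 ± 0.42 (adjusted p = 6.86e-06). Lpl thus had the largest difference from the control with cAMP among the 9 tested genes, on both scales. The control value rests on about 107 reads.

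Cd36 (ENSMUSG00000002944, chromosome 5, 17781690 to 17888801, minus strand) was listed at 5.77 CPM in the control, 30.3 and 40.3 with forskolin and 94.3 and 116 with cAMP. The groups again stood in that order without overlap. Scaled, it was 18.2 in the control, 21.3 and 30.6 with forskolin and 57.1 and 104 with cAMP, so that the first forskolin library lay close to the control. The rise with cAMP was 3.96 ± 0.58 log2 units as deposited and 2.02 ± 0.42 scaled (limma adjusted p = 1.86e-09 and 0.00249). With forskolin it was 2.41 ± 0.58 as deposited (limma adjusted p = 0.000181), but scaled the difference was 0.47 ± 0.42 and did not pass (adjusted p = 0.431; 95% interval -0.41 to 1.35).

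The cytosolic carriers behaved unlike each other. Fabp5 (ENSMUSG00000027533, chromosome 3, 10012548 to 10016607, plus strand), the epidermal form, was at 5.46 CPM in the control, 171.5 and 157 with forskolin and 441 and 263 with cAMP. Scaled, the values were 17.2, then 121 and 120, then 267 and 236. All 4 treated libraries were far above the control on both scales, the forskolin pair almost equal and the cAMP pair higher. The difference from the control was 4.68 ± 0.59 log2 units with forskolin and 5.72 ± 0.59 with cAMP (limma adjusted p = 2.33e-11 and 9.35e-17), the largest of the 9 genes with forskolin. After scaling it was 2.73 ± 0.37 and 3.79 ± 0.37 (limma adjusted p = 0.000147 and 6.44e-06). The mouse genome holds a pseudogene copy, Fabp5l2, and how reads shared with it were counted was not given in the sources used here.

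Fabp4 (ENSMUSG00000062515, chromosome 3, 10204088 to 10208576, minus strand), the adipocyte form, lies on the same chromosome and was low in every library. It was at 1.13 CPM in the control, 1.66 and 1.10 with forskolin and 1.51 and 4.48 with cAMP, and as deposited the second cAMP library alone stood clear of the rest. Scaled, it was at 3.58 in the control, 1.17 and 0.839 with forskolin and 0.914 and 4.01 with cAMP, so that the control and cAMP 2 were high and the other 3 libraries low. Neither comparison with the control passed as deposited (0.15 ± 0.66 and 0.80 ± 0.66 log2 units; limma adjusted p = 0.838 and 0.263). The sign turned with scaling, to -1.20 ± 0.57 with forskolin and -0.56 ± 0.57 with cAMP, and again neither passed (limma adjusted p = 0.139 and 0.494). Fabp4 thus had values in both directions and no call.

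Among the droplet coats, Plin2 is the perilipin of most non-adipose cells and its protein is stable only on droplets. Plin2 (ENSMUSG00000028494, chromosome 4, 86648386 to 86670060, minus strand) was at 11.2 CPM in the control, 106 and 189.5 with forskolin and 456 and 298 with cAMP. Scaled, it was at 35.4, then 74.6 and 144, then 276 and 267. The 3 groups kept apart on both scales, and scaling brought the cAMP libraries close together. Plin2 rose by 3.54 ± 0.60 log2 units with forskolin and 4.92 ± 0.60 with cAMP (limma adjusted p = 2.25e-07 and 8.13e-13), and by 1.52 ± 0.42 and 2.90 ± 0.42 after scaling (limma adjusted p = 0.017 and 0.000149). The scaled call with forskolin was lost when forskolin 2 was left out.

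Plin3 (ENSMUSG00000024197, chromosome 17, 56278962 to 56290511, minus strand), a perilipin that sits in the cytosol and moves to forming droplets, was not called in either direction once scaled. As deposited it was at 10.5 CPM in the control, 22.5 and 36.1 with forskolin and 44.6 and 24.0 with cAMP, the treated groups overlapping each other and the control below them. Scaled, the control was the highest library at 33.3, above 15.9 and 27.4 with forskolin and 27.0 and 21.5 with cAMP. The deposited rises of 1.36 ± 0.57 and 1.55 ± 0.57 log2 units passed (limma adjusted p = 0.0309 and 0.0141), both under the rise of the median gene. The scaled differences of -0.65 ± 0.41 and -0.45 ± 0.41 did not (limma adjusted p = 0.258 and 0.443). Without either forskolin library, without cAMP 1, with no filter or with a pseudocount of 5, at least 1 of the deposited calls of Plin3 was also lost, with limma adjusted p from 0.0516 to 0.266.

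Plin4 and Plin5 are neighbours on chromosome 17, minus strand, and are perilipins known mainly from fat and muscle. Plin4 (ENSMUSG00000002831, 56100591 to 56109803) was at 1.19 CPM in the control, 14.6 and 9.51 with forskolin and 29.0 and 7.51 with cAMP. Its cAMP libraries spanned the forskolin pair, and the control lay below all 4. Scaled, it was at 3.77, then 10.3 and 7.24, then 17.5 and 6.73. It rose by 2.54 ± 0.59 and 2.86 ± 0.59 log2 units as deposited (limma adjusted p = 0.000113 and 1.62e-05). The scaled differences, 1.01 ± 0.50 with forskolin and 1.33 ± 0.50 with cAMP, missed the threshold (limma adjusted p = 0.147 and 0.0624), and with no filter the deposited call with forskolin was lost (adjusted p = 0.0635). Plin5 (ENSMUSG00000011305, 56111601 to 56117596) was at 0.0607 CPM in the control, which is the level of 3 reads, at 1.26 and 0.414 with forskolin, at 0.890 in cAMP 1 and under 1 read in cAMP 2. No test was made, and no fold is given against a control at the floor.

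Cidea (ENSMUSG00000024526, chromosome 18), which enlarges droplets by passing lipid from one to another and is expressed in sebaceous glands, was at 5.61 CPM in the control, 33.0 and 39.1 with forskolin and 135 and 79.2 with cAMP. Scaled, it was at 17.7, then 23.2 and 29.7, then 81.7 and 70.9. The groups did not overlap on either scale, and after scaling the forskolin libraries stood much nearer the control than the cAMP libraries. The cAMP rise was 3.98 ± 0.58 log2 units as deposited and 2.04 ± 0.38 scaled (limma adjusted p = 1.65e-09 and 0.001). The forskolin rise was 2.48 ± 0.58 as deposited (limma adjusted p = 0.00012), whereas the scaled difference of 0.55 ± 0.38 did not pass (adjusted p = 0.301; 95% interval -0.24 to 1.33).

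Lipe (ENSMUSG00000003123, chromosome 7, 25379527 to 25395987, minus strand), the lipase that acts at the droplet, was low throughout. It was at 0.911 CPM in the control, 4.99 and 4.27 with forskolin and 4.16 and 3.04 with cAMP, and the control, which rests on about 45 reads, was the lowest. Scaled, all 5 libraries lay close together, at 2.87 in the control, 3.51 and 3.25 with forskolin and 2.52 and 2.72 with cAMP. As deposited Lipe rose with forskolin by 1.56 ± 0.62 log2 units (limma adjusted p = 0.0214), and the difference of 1.26 ± 0.62 with cAMP missed the threshold (adjusted p = 0.0632). After scaling the differences were 0.18 ± 0.47 and -0.10 ± 0.47 (limma adjusted p = 0.806 and 0.899), so that the sign with cAMP turned. The deposited call with forskolin was lost without either forskolin library, with no filter and when 5 was added in place of 1 (limma adjusted p from 0.062 to 0.131).

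**Figure D2:**
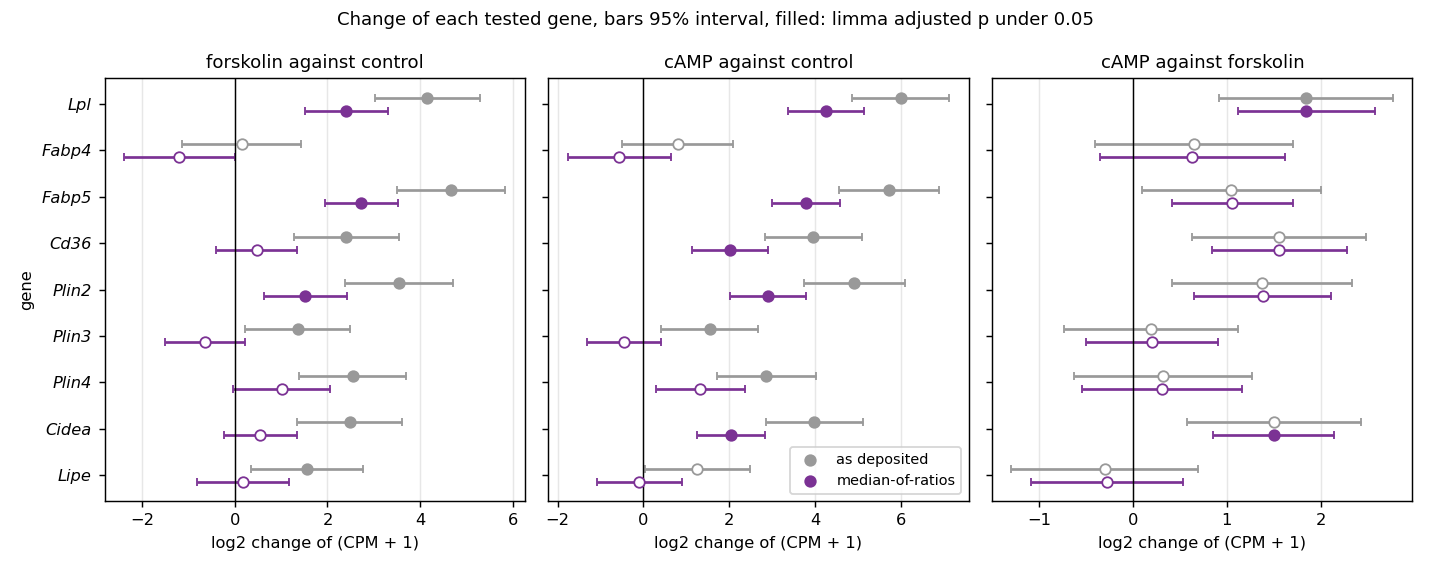
Log2 difference of CPM + 1 for the 9 tested genes in the 3 comparisons, as deposited (grey) and after median-of-ratios scaling (purple), with bars for the 95% interval and filled points for a limma adjusted p under 0.05. Scaling shifts every difference from the control to the left and leaves those between the treatments almost where they were.

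The treatments were then compared with each other at their own doses, 10 µM forskolin and 1.325 mM cAMP, which are not matched. Here scaling hardly mattered: the median log2 difference of all tested genes was -0.03 as deposited and -0.02 scaled. Of the 9 genes, 1 was higher with cAMP as deposited (Lpl; 0.189% of all tested genes were higher) and 0 were lower (0.189% of all). After scaling 2 were higher (Lpl and Cidea; 0.254% of all) and 0 lower (0.0944% of all). At an unadjusted p under 0.05, 5 of the 9 were higher and 0 lower on both scales by limma, where 3.55% of all tested genes were higher and 3.26% lower as deposited and 6.12% and 5.11% scaled. Lpl was 1.84 ± 0.47 log2 units higher with cAMP (limma adjusted p = 0.037; scaled 1.85 ± 0.35, adjusted p = 0.0322). That call did not hold with a pseudocount of 0.1, with no filter, with protein-coding transcripts alone or without any 1 of the 4 treated libraries, where the limma adjusted p ran from 0.0703 to 1. Cidea was 1.50 ± 0.31 higher after scaling (limma adjusted p = 0.0436) and 1.50 ± 0.47 higher as deposited (adjusted p = 0.181). The scaled calls of both Lpl and Cidea were lost without forskolin 1, cAMP 1 or cAMP 2, with limma adjusted p from 0.0558 to 0.526, and held without forskolin 2.

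In the other 7 genes no difference between the treatments passed on either scale. Cd36 differed by 1.56 log2 units (95% interval 0.63 to 2.48; limma adjusted p = 0.145), Plin2 by 1.37 (0.41 to 2.33; adjusted p = 0.332) and Fabp5 by 1.05 (0.09 to 2.001; adjusted p = 0.671), each with both cAMP libraries above both forskolin libraries. Their intervals, which are not adjusted over genes, lay above 0. After scaling the limma adjusted p was 0.0558 for Cd36, 0.0928 for Plin2 and 0.176 for Fabp5. For Plin3 the difference was 0.19 (interval -0.73 to 1.12), for Plin4 0.32 (-0.63 to 1.26) and for Fabp4 0.65 (-0.40 to 1.70), with overlapping libraries. Lipe alone had a negative difference, -0.30 (interval -1.29 to 0.69), and both of its cAMP libraries lay under both forskolin libraries. These intervals are wide enough to hold differences of more than 1 log2 unit, so they do not show that the treatments act alike. The median over the 9 genes was 1.05 log2 units as deposited and 1.06 scaled. The 14 sebaceous gland markers described below had a larger median in this comparison, 1.51 as deposited and 1.49 scaled. By limma 2 of the 14 were higher with cAMP as deposited and 3 scaled (0.189% and 0.254% of all tested genes). The count lower was 0 on both scales (0.189% and 0.0944% of all). The deposited calls were Cyp2g1 (2.29) and Elovl3 (1.95), both larger than the 1.84 of Lpl.

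Levels of different genes were compared per kilobase, with each transcript divided by its own length and the results summed per gene. Short transcripts weigh more in such a sum. Of Plin2, 21.9% to 33.1% of the CPM lay on models annotated as processed transcripts and not as coding. Its models other than Plin2-001 (1888 bases) were 551 to 996 bases long. The order of Plin2 and Fabp5 in the treated libraries thus depends on which transcripts are counted. In the control Plin2 was the highest at 12.4 CPM per kb, ahead of Cidea at 5.03, Fabp5 at 4.78, Plin3 at 2.89 and Cd36 at 2.22. Fabp4 followed at 1.27, Lpl at 0.527, Lipe at 0.342, Plin4 at 0.208 and Plin5 at 0.0306 CPM per kb. With 1 control library, the spread of this order is unknown. Plin2 and Fabp5 led with both treatments, at means of 159 and 127 CPM per kb with forskolin and 365 and 327 with cAMP, and their libraries overlapped each other in both groups. Cidea came next, at 32.3 with forskolin and 96.0 with cAMP. Cd36 (18.7) and Lpl (16.5) overlapped with forskolin, and with cAMP both Lpl libraries (mean 49.0) were above both Cd36 libraries (mean 39.3). Plin3, at 8.04 and 9.42 CPM per kb, lay below all of these, and Plin4, Lipe, Fabp4 and Plin5 had means between 0.224 and 3.29.

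The make-up of the group's RNA differed between the libraries. Together the 10 genes held 44.1 CPM in the control, 429 and 549 with forskolin and 1403 and 1003 with cAMP. Plin2 kept a share of 24.7% to 34.5% of that sum in all 5 libraries. Plin3, which with Plin2 made up the largest shares in the control, went from 23.9% there to between 2.39% and 6.57% in the treated libraries. Fabp5 went the other way, from 12.4% to between 26.2% and 40.0%, and Lpl from 4.91% to between 9.98% and 20.6%. These shares are free of the library scaling but not of each other, since they sum to a whole.

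The table listed 29 transcripts of the 10 genes, which gives a view inside each gene that does not depend on how libraries are scaled. Transcript values are estimates shared out among overlapping models, and no test was made of them. The Lipe gene has 2 coding transcripts with separate starts. Lipe-001, from 25390106, has 759 codons in GENCODE M21, and Lipe-002, from 25395987 further upstream, has 802. The longer form held 0.008% of Lipe in the control, 7.07% and 7.89% with forskolin and 37.2% and 38.5% with cAMP. Its estimated reads were 0 in the control, 17.1 in each forskolin library and 80.0 and 40.0 with cAMP, so the forskolin shares rest on few reads. Against 3 reads in the control, Lipe-002 was at least 5.68-fold higher with forskolin and at least 22.4-fold higher with cAMP, and at least 1.32-fold and 5.18-fold higher after scaling. Its mean was 3.94-fold higher with cAMP than with forskolin, and the libraries did not overlap. Lipe as a whole, as given above, was slightly lower with cAMP than with forskolin, and Lipe-001 was at 4.64 and 3.94 CPM with forskolin against 2.61 and 1.87 with cAMP. The window printed for Lipe lies before the start of Lipe-001.

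Fabp5 has a coding transcript and a longer transcript that retains an intron. The retained-intron form held 19.6% of Fabp5 in the control, 38.5% and 29.0% with forskolin and 11.1% and 13.9% with cAMP, so the forskolin libraries were the highest and the cAMP libraries the lowest. In CPM this form was at 1.07 in the control and at 66.0 and 45.7, then 48.8 and 36.5, in the treated libraries, which overlapped. The coding form was at 4.39 CPM in the control, 105.5 and 112 with forskolin and 392 and 227 with cAMP. With protein-coding transcripts alone the difference of Fabp5 between the treatments was 1.45 log2 units in place of 1.05, and it again did not pass (limma adjusted p = 0.338).

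**Figure D3:**
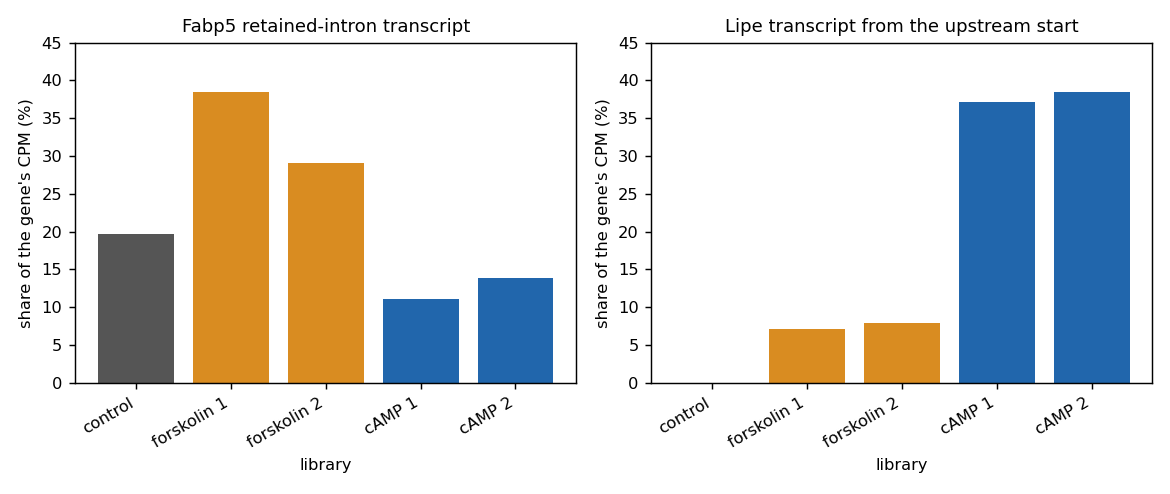
Share of the gene's CPM held by the Fabp5 transcript that retains an intron (left) and by the Lipe transcript from the upstream start (right), in percent, 1 bar a library. The Fabp5 bars are highest with forskolin and the Lipe bars are highest with cAMP.

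Lpl and Cd36 differed among single libraries in their transcripts. In forskolin 2, 25.6% of Lpl (18.3 CPM) was put on Lpl-002, a model annotated for nonsense-mediated decay, and in the other 4 libraries this model held at most 0.0501%. Of the 6 coding Cd36 transcripts, those that start at 17835696 to 17835717, nearest the printed window, held 76.9% of Cd36 in the control, 58.8% and 35.1% with forskolin and 57.6% and 52.1% with cAMP. The starts further upstream, at 17849729 to 17849792 and 17888747 to 17888801, took the rest. Forskolin 2 was the library most evenly spread over the 3, at 35.1%, 34.1% and 30.8%.

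The summed level of sebaceous gland markers was higher in every treated library than in the control, as was that of the 10 genes. All 14 markers of the list were tested, and their summed level was 253 CPM in the control, 2537 and 3991 with forskolin and 8085 and 7750 with cAMP. In the control, Cyp2g1, Pparg and Mc5r lay under 3 reads. By limma 13 were higher with forskolin and 14 with cAMP as deposited (66.3% and 65.1% of all tested genes). After scaling 10 and 12 were (14.4% and 14.8% of all), and 0 were lower (7.39% and 7.78% of all). Awat2 alone had a scaled difference below 0 with forskolin (-1.24 log2 units, limma adjusted p = 0.0552). Relative to that sum, which needs no library scaling, the 10 genes together held 17.4% in the control, 16.9% and 13.8% with forskolin and 17.4% and 12.9% with cAMP, a spread of 1.35-fold from the lowest to the highest library. Plin2 by itself lay between 3.85% and 5.64% of the marker sum in all 5 libraries. Scd1 made up much of that sum, at 111 CPM in the control and 3720 in cAMP 2. With Scd1 left out, the 10 genes were at 31.0% in the control, 27.0% and 21.6% with forskolin and 27.1% and 24.9% with cAMP. The control was then the highest library, and the spread was 1.43-fold. The ratio to the markers was chosen after the values were seen and is a description. What part the amount of gland in each library had in the levels of the 10 genes was not tested. Other cell types of the epidermis differed too. Keratinocyte markers summed to 2082 CPM in the control, 7230 and 5901 with forskolin and 7052 and 3069 with cAMP. After scaling 3 of 10 were lower with forskolin and 5 of 10 with cAMP by limma (7.39% and 7.78% of all tested genes). The scaled list medians were -0.48 and -1.30 log2 units. Langerhans cell markers summed to 107 CPM in the control, 775 and 489 with forskolin and 730 and 292 with cAMP. All 7 were higher with each treatment as deposited (66.3% and 65.1% of all tested genes) and 0 after scaling (14.4% and 14.8% of all). At an unadjusted p under 0.05, 2 with forskolin and 0 with cAMP were higher after scaling, where 23.2% and 22.9% of all were. Dermal fibroblast markers set forskolin 1 apart, at 13.9 CPM against 145 in the control, 205 in forskolin 2 and 114 and 262 with cAMP. The part of these cells in the levels of the 10 genes was not tested either.

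The single genes moved differently against the full sum of sebaceous gland markers. Lpl went from 0.855% in the control to 1.69% and 1.79% with forskolin and 2.43% and 2.67% with cAMP, and Fabp5 from 2.16% to between 3.40% and 6.76%. Both were thus higher against the markers in every treated library. Cd36 went from 2.28% in the control to between 1.01% and 1.50%, and Cidea from 2.21% to between 0.980% and 1.67%. Plin3 went from 4.16% to between 0.310% and 0.904%, Lipe from 0.360% to between 0.0393% and 0.197% and Fabp4 from 0.448% to between 0.0187% and 0.0655%. These 5 genes were lower against the markers in every treated library. Plin4 went from 0.472% in the control to 0.575% and 0.238% with forskolin and 0.358% and 0.0969% with cAMP. The forskolin libraries thus lay on either side of the control for Plin4.

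**Figure D4:**
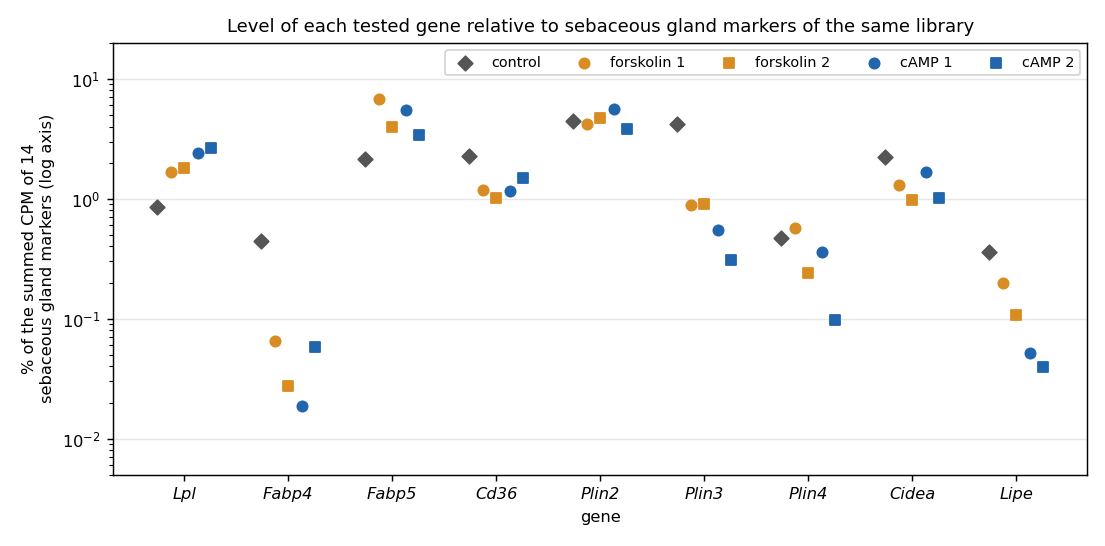
Level of each tested gene as a percent of the summed CPM of 14 sebaceous gland markers in the same library, on a log axis. Plin2 stays between 3.85% and 5.64%, Lpl and Fabp5 lie higher in the treated libraries than in the control (diamond), and Plin3, Fabp4 and Lipe lie lower.

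Several of these genes are best known from fat, blood vessels, macrophages and muscle. The marker sums below are as deposited, where the median of all tested genes was higher with each treatment than in the control. Of 10 adipocyte markers, 9 were listed, 4 were tested and their sum was 10.8 CPM in the control, 14.8 and 19.997 with forskolin and 45.8 and 53.8 with cAMP. Adipoq and Lep were not tested, and stayed between 0.116 and 0.907 CPM and at or under 0.406. Most of the higher sum with cAMP was Adig (0.0203 CPM in the control, 30.5 and 23.6 with cAMP) and, in cAMP 2, Car3 (20.98 CPM). By limma Adig and Cidec were higher with cAMP on both scales (65.1% of all tested genes as deposited, 14.8% scaled), and Cfd was lower scaled (7.78% of all). With forskolin both were higher as deposited (66.3% of all). After scaling Adig was higher (14.4% of all) and Car3 and Cfd lower (7.39% of all). As deposited cAMP 2 also had the highest Adipoq and Fabp4, and after scaling Fabp4 was at 4.01 in cAMP 2 and 3.58 in the control. Endothelial markers summed to between 2.07 and 6.02 CPM. Macrophage markers summed to 9.44 CPM in the control, 83.4 and 49.7 with forskolin and 55.2 and 38.0 with cAMP. After scaling 2 of the 8 tested, Csf1r and C1qa, were higher by limma with each treatment (14.4% and 14.8% of all tested genes). Lower were 1 with forskolin and 0 with cAMP (7.39% and 7.78% of all). Skeletal muscle markers summed to between 77.1 and 183 CPM, as deposited lowest in the control and highest in cAMP 2. After scaling 4 of the 10 were lower with forskolin and 2 with cAMP by limma (7.39% and 7.78% of all tested genes). The scaled list medians were -1.19 and -0.99 log2 units, and 0 markers were higher (14.4% and 14.8% of all). The part of these cells in the levels of the 10 genes was not tested.

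The rest of the pathway was followed in 4 lists of genes outside the 10. For fatty acid uptake, activation and binding, 9 of 12 tested genes rose with forskolin as deposited (66.3% of all tested genes did) and 2 after scaling (14.4% of all), and with cAMP 8 (65.1% of all) and 5 (14.8% of all). Apart from the scaled count with cAMP, these are near the shares over all genes. None of the 12 fell as deposited in either comparison by limma, also at an unadjusted p under 0.05. Over all tested genes 0.341% and 0.436% fell as deposited, or 0.436% and 0.545% unadjusted. After scaling 0 fell with forskolin (7.39% of all) and 2 with cAMP (Slc27a3 and Slc27a6, 7.78% of all). The list's median log2 difference from the control was 2.20 with forskolin and 2.47 with cAMP, or 0.20 and 0.48 scaled. Slc27a1, a fatty acid transport protein known mainly from muscle and fat, was at 2.23 CPM in the control, 29.2 and 49.3 with forskolin and 52.4 and 30.4 with cAMP, and rose by 3.59 log2 units with forskolin and 3.66 with cAMP (1.84 and 1.92 scaled). Slc27a4, a fatty acid transport protein of the epidermis, was at 14.9 CPM in the control, 108 and 179 with forskolin and 459 and 374 with cAMP, and rose by 4.71 log2 units with cAMP (2.68 scaled). Acsbg1, an acyl-CoA synthetase, rose by 3.44 with forskolin and 3.79 with cAMP (1.37 and 1.73 scaled), although both scaled calls were lost when the second library of the treatment was left out.

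Of 15 tested genes that control lipoprotein lipase or take up lipoproteins, 11 rose with each treatment as deposited, and 2 with forskolin and 3 with cAMP did after scaling. Over all tested genes the shares were 66.3% and 65.1% as deposited and 14.4% and 14.8% scaled, close to those of this list. None fell by limma on either scale, where 0.341% and 0.436% of all did as deposited and 7.39% and 7.78% scaled. At an unadjusted p under 0.05 the counts of lower genes were 0 as deposited (0.436% and 0.545% of all). Scaled they were 1 and 2 (13.6% and 13.7% of all). The median log2 difference of the list was 1.94 and 2.21 as deposited and 0.31 and 0.37 scaled. Lrp1, a large receptor that takes up lipoprotein remnants, was at 4.39 CPM in the control, 38.5 and 44.0 with forskolin and 25.3 and 9.16 with cAMP. It rose by 2.97 log2 units with forskolin and 1.60 with cAMP as deposited, but its scaled differences of 1.07 and -0.28 did not pass. With cAMP it was 1.37 log2 units below forskolin, a difference that did not pass (limma adjusted p = 0.293). Without cAMP 1 that difference passed (limma adjusted p = 0.0365), and the deposited call of Lrp1 with cAMP was lost (adjusted p = 0.09998), as it was with no filter (adjusted p = 0.107). Angptl4, a secreted inhibitor of lipoprotein lipase and a known PPAR target, was under 1 read in the control and at 4.45 and 9.83 CPM with forskolin and 8.88 and 11.1 with cAMP. Against 3 reads in the control, it was at least 118-fold higher with forskolin and at least 164-fold higher with cAMP, and at least 27.7-fold and 39.9-fold higher after scaling. Its treated groups overlapped.

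Among 20 tested genes of droplet coat, assembly and lipolysis, 17 rose and 0 fell with forskolin by limma as deposited. Also at an unadjusted p under 0.05 the count lower was 0 (0.436% of all tested genes). After scaling 4 rose and 2 fell. With cAMP, 16 rose and 1 fell as deposited, and 8 rose and 1 fell after scaling. The shares of all tested genes that rose were 66.3% and 65.1% as deposited and 14.4% and 14.8% scaled. The shares that fell were 0.341% and 0.436% as deposited and 7.39% and 7.78% scaled. The scaled counts with forskolin were thus near the background. The list's median was 1.85 and 2.33 log2 units as deposited and 0.32 and 0.82 scaled. Mgll, the monoacylglycerol lipase that completes lipolysis after Lipe, was at 27.7 CPM in the control, 308 and 733 with forskolin and 1329 and 929 with cAMP, and rose by 1.98 and 3.21 log2 units after scaling (without forskolin 2 the first call was lost). Hilpda, an inhibitor of the first lipase of that pathway, rose with cAMP by 3.53 as deposited and 2.29 scaled, and Fitm2, which helps droplets form, by 3.43 and 1.53, the scaled call being lost without cAMP 2. Ces1d, a carboxylesterase that acts on stored lipid, was at 7.71 CPM in the control, 23.7 and 32.3 with forskolin and 76.0 and 71.4 with cAMP, and had the smallest p of the list between the treatments, a difference of 1.38 log2 units that did not pass (limma adjusted p = 0.270). Pnpla3, a droplet lipase, was among the genes that rose with forskolin on both scales (3.24 and 1.54 log2 units), and its scaled difference with cAMP, 0.98, did not pass. The gene that was lower with cAMP on both scales was Mettl7a1, a droplet-associated methyltransferase-like protein, at 12.7 CPM in the control, 14.03 and 7.63 with forskolin and 8.28 and 2.45 with cAMP (-1.27 as deposited, -3.23 scaled). Its deposited call was lost without cAMP 2 and under 6 of the other settings tried.

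For triglyceride assembly, 11 of 12 tested genes rose and 0 fell with each treatment by limma as deposited. Also at an unadjusted p under 0.05 the counts lower were 0 (0.436% and 0.545% of all tested genes). After scaling 4 rose with forskolin and 5 with cAMP, and 1 fell with each (Agpat4). Over all tested genes 66.3% and 65.1% rose and 0.341% and 0.436% fell as deposited. After scaling 14.4% and 14.8% of all rose and 7.39% and 7.78% fell. The medians were 2.35 and 2.82 log2 units as deposited and 0.70 and 1.04 scaled. Gpam, the first step of the pathway, rose by 1.998 with forskolin and 2.85 with cAMP after scaling, and Dgat1, its last step, by 1.78 and 2.74. Gpd1, which makes glycerol phosphate, rose by 2.26 with cAMP after scaling and had a scaled difference of 0.70 with forskolin that did not pass. Between the treatments 0 genes of the 4 lists passed by limma on either scale, in either direction. At an unadjusted p under 0.05 the deposited counts higher with cAMP were 2, 0, 5 and 3 in the order of the lists given here. The counts lower were 1, 1, 1 and 0. Of all tested genes 3.55% were higher and 3.26% lower at that threshold.

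The profiles of the 10 genes over the 5 libraries were compared by the root mean square difference of scaled, centred log2 values, where 0 is an equal course. Within the group Cd36 and Cidea were the nearest pair (0.34), followed by Cidea and Plin2 (0.42) and Lipe and Plin3 (0.43), and Lpl and Fabp4 were the farthest apart (1.82). Among all tested genes at or above the median level, the nearest to Lpl were Adig (0.22) and Tmem45b (0.23), and to Fabp5 Psme2 (0.09) and Rpl11 (0.16). Those nearest to Cd36 were Hsd17b12 (0.13) and Aldh1a7 (0.14), to Cidea Adh1 (0.11) and Gpd1 (0.13), and to Plin2 Mvd (0.15) and Slc25a10 (0.15). Plin3 was closest to Ext2 (0.08) and Cenpb (0.09), Plin4 to Eef1g (0.13) and Bola2 (0.16), Fabp4 to Srp54a (0.17) and Zmpste24 (0.19), and Lipe to Gpkow (0.04) and Fam63a (0.04). With 5 libraries in 3 groups this likeness is a description of these libraries.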

How the data were processed

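Per the labels' protocols, RNA from total epidermis was made into stranded mRNA libraries. The submitters' processing notes name STAR, Partek and bcl2fastq 2.17, with genome build, annotation and settings not given in the sources used here. A table of 59869 transcripts in CPM was deposited by the authors, a unit read from its values. Zeros appear there as a small offset, and read numbers assume that this offset stood for 0.0001 read. All 29 transcripts of the 10 genes were in GENCODE M21 (GRCm38), 25 at the same position.

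Transcripts were summed per gene, and 3 rows without a gene identifier were left out. Genes with at least 1 CPM in 2 libraries were fitted with limma 3.58.1 (R 4.3.3) on log2(CPM + 1) with an intensity trend, 5 libraries in 3 groups, no covariates, 2-sided, with Benjamini-Hochberg adjustment over all tested genes. This scale understates changes of low genes. The fit had 2 residual and 360.2 prior degrees of freedom (15.7 scaled). Each standard error thus came mostly from the trend over all genes and little from the gene's own libraries. The fit was also run on simulated data. These had the same spread in every library and no difference in make-up, so they cannot show how the fit handles the control. Size factors came from 11512 tested genes. The floor of 3 reads covers counting error only. Same-numbered libraries of the treatments did not deviate together (correlation -0.05 across genes).

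The text names all 10 genes, the gene with the smallest p of each related list and comparison with a part of the next 2, and the 2 genes of most similar profile to each tested gene. Which of the next 2 are named was decided after their values were seen. The genes named as lower in the lists, the transcripts and the ratio to markers were chosen after their values were seen. The 10 genes, the lists and the rules were chosen with earlier results of these data known. Promoter sequences are from RefSeq (GRCm38.p6). Tables were handled with Python 3.11.15. The alternatives tried were other scalings, pseudocounts and filters, robust moderation, coding transcripts alone, a replicate block and leaving out each treated library.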

Additional observations from a re-analysis of the deposited data

Results flagged for a closer look

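Lpl met a rule for a closer look because its differences from the control with cAMP and with forskolin differed from each other by the test of that difference. Lpl was 1.84 log2 units higher with cAMP than with forskolin (limma adjusted p = 0.037), and both cAMP libraries (196 and 207 CPM) lay above both forskolin libraries (42.8 and 71.6 CPM). The control library is common to both differences and cancels in this one.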

How the results depend on the processing

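Scaling ended 5 of the 8 deposited calls with forskolin and 2 of the 7 with cAMP. With forskolin, 8 genes were higher as deposited, 3 with median-of-ratios scaling, 3 with scaling to nuclear genes and 5 with no filter. Leaving out a treated library gave 6 to 8 as deposited and 2 to 3 scaled. With cAMP, the 7 higher genes became 6 to 8, or 5 to 6 scaled. Between the treatments, the 1 higher gene became 2 with either scaling and 0 with a pseudocount of 0.1, no filter or coding transcripts alone. Leaving out a library there gave 0 to 1, or 0 to 4 scaled. Counts of lower genes were 0 under every setting run. The control cannot be left out of comparisons with it.

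The replicate numbers do not pair the samples. A replicate block left the deposited counts at 8, 7 and 1, and scaling together with the block gave 3, 6 and 4. The combined settings were added after seeing the data.

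Signs turned for the genes below, of which Plin3, Lrp1 and Ces1d had been called as deposited, and the cause was not tested. Fabp4 was -1.20 and -0.56 (forskolin, cAMP) with median-of-ratios scaling and -1.12 and -0.51 with nuclear scaling. Plin3 was -0.65 and -0.45, then -0.53 and -0.38. Lipe with cAMP was -0.10, then -0.048, Lrp1 with cAMP -0.28, then -0.22, and Ces1d with forskolin -0.25, then -0.13. With a library left out after scaling, Fabp4 ran from -1.32 to -1.08 (forskolin), -1.26 to 0.13 (cAMP) and -0.061 to 1.33 (between treatments), Plin3 from -1.02 to -0.27, -0.61 to -0.29 and -0.18 to 0.58, Lipe with cAMP from -0.14 to -0.057, Lrp1 with cAMP from -0.69 to 0.13, Ces1d with forskolin from -0.52 to 0.013, and between treatments Plin4 from -0.32 to 0.94, Angptl4 from -0.022 to 1.02 and Slc27a1 from -0.34 to 0.50 (-0.030 without cAMP 1). As deposited, Fabp4 and Mettl7a1 with forskolin ran from -0.021 to 0.32 and -0.67 to 0.14, and Plin3, Plin4 and Slc27a1 between treatments from -0.24 to 0.63, -0.59 to 1.23 and -0.31 to 0.45.

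Over all genes, the calls against the control numbered 9177 (forskolin) and 9025 (cAMP) as deposited, 2997 and 3113 with median-of-ratios and 3076 and 3101 with nuclear scaling, and with forskolin 5283 without forskolin 1. Between the treatments there were 52 calls, 16 with a pseudocount of 0.1, 33 with a filter of 10 CPM, 6 for coding transcripts, 0 with no filter, 11 to 70 with a library left out and, scaled, 48, or 177 with the block. Depth limits Plin5 and Lipe-002, which rest on few reads.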
